A study of Oryza sativa Japonica Group with 31 samples.

Results

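Tonoplast intrinsic proteins (TIPs) are the aquaporins of the vacuolar membrane, and 5 rice TIP loci were taken from a table of 55801 loci by their identifiers. They were LOC_Os03g05290 (TIP1;1), LOC_Os01g74450 (TIP1;2), LOC_Os02g44080 (TIP2;1), LOC_Os06g22960 (TIP2;2) and LOC_Os05g14240 (TIP4;1). RefSeq also spells these names TIP1-1, TIP1-2, TIP2-1, TIP2-2 and TIP4-1, and that spelling is used from here on. A RefSeq gene of the same name lies on the chromosome written in the identifier for 5 of the 5 loci (chromosomes 3, 1, 2, 6 and 5). The same RefSeq table names 4 other rice TIP genes, TIP3-1, TIP3-2, TIP4-2 and TIP5;1. These were outside the 5 chosen loci and were not analysed here. RefSeq carries 0 of the identifiers of the 5 loci, so their TIP names rest on the choice of loci.

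The tissue was leaf of Nipponbare, a japonica rice cultivar and the source of the rice reference genome. Cold seedlings were moved to 4 °C on day 13 and collected 24 h later, whereas control seedlings remained in the greenhouse at 28 °C (day) and 22 °C (night) under a cycle of 12 h light and 12 h dark. No transgene, mutation or chemical is named for either treatment. Of the 31 libraries of the series, 4 are RNA-seq, 2 of cold and 2 of control seedlings, called biological replicates in the labels, and the other 27 were not analysed here. The deposited RNA-seq table holds 1 FPKM value per treatment (fragments scaled by locus length and by the column's fragment total), so no value below has a replicate error, no test could be made, and every difference is a description of these 2 columns. Summed FPKM was 554475 in cold and 584870 in control, and the read depth behind the columns is unknown. Leaf identity was taken from the labels, since leaf marker genes could not be named from the table's identifiers.

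The vacuole fills most of a mature leaf cell, and TIPs let water cross its membrane quickly, which buffers the cytosol when the cell gains or loses water. They belong to the major intrinsic protein family and are recognised by repeated Asn-Pro-Ala triplets that line the pore. Some plant TIPs also pass ammonia, urea or hydrogen peroxide, as shown for Arabidopsis and wheat members. The TIP1 group corresponds to the γ-TIPs of Arabidopsis, TIP2 to its δ-TIPs and TIP4 to its ε-TIP.

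On the deposited scale, 1 TIP was much higher after 24 h of cold and the others were level or lower. TIP4-1 was 4.01-fold higher in cold, TIP1-1 was nearly the same in both treatments, TIP2-2 and TIP1-2 were 1.52-fold and 1.53-fold lower in cold, and TIP2-1 was under 1 FPKM in both. Summed over the 5 loci, TIP transcripts came to 1367 FPKM in cold and 1363 FPKM in control, a ratio of 1.003. On the deposited scale the sum was therefore almost equal while its make-up was not. The log2 ratio of the sum was 0.0039 as deposited and 0.35 after median-of-ratios scaling, so the near equality depends on the scale. Under that scaling the log2 fold change was 2.33 for TIP4-1, 0.36 for TIP1-1, −0.25 for TIP2-2 and −0.26 for TIP1-2. In leaf tissue as a whole, a lower value from fewer cells of a type cannot be told apart from less RNA per cell.

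**Figure D1:**
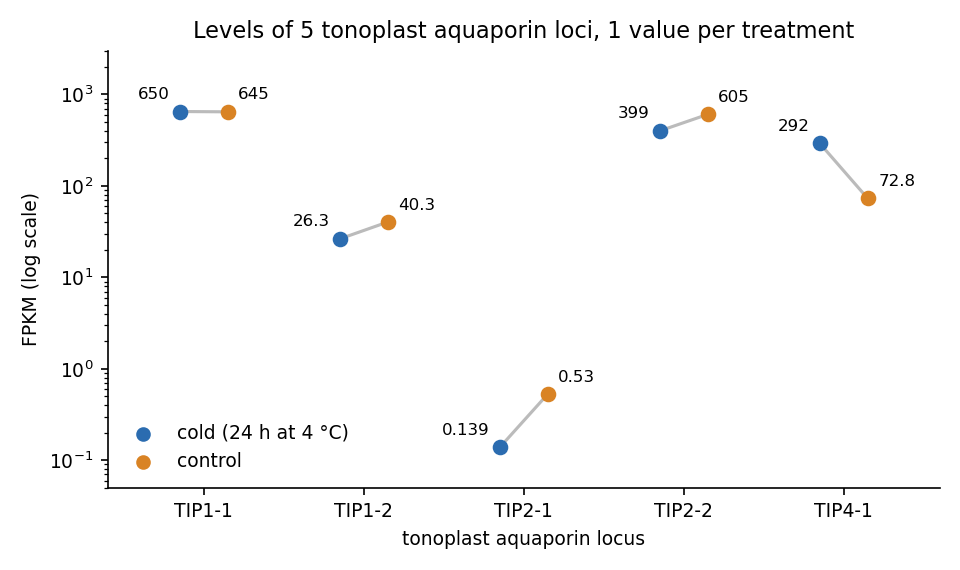
FPKM (log scale) of the 5 TIP loci in cold (blue, left) and control (orange, right), 1 value per treatment and so without error bars. TIP4-1 stands at 292 FPKM in cold and 72.8 FPKM in control, while TIP1-1 is at 649.9 FPKM in cold and 644.9 FPKM in control.

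TIP1-1, a γ-type TIP of the kind found in large vacuoles, had the highest level of the 5 loci in both treatments. It was listed at 649.9 FPKM in cold and 644.9 FPKM in control, a ratio of 1.01. Its log2 fold change, taken on log2(FPKM + 1) as are all fold changes on the log2 scale here unless a ratio is named, was 0.01. It ranked 67 among all loci in cold and 78 in control. On the deposited scale the median log2 fold change over the 20876 loci whose mean reached 1 FPKM was −0.27, so TIP1-1 lay 0.28 above it. Under median-of-ratios scaling that median was 0.029, so the sign of the median depends on the scale. TIP1-1 was at 0.36 under that scaling, 0.33 above the median. Among the 138 other loci with a mean within 2-fold of that of TIP1-1, the median log2 fold change was −0.30, with quartiles of −0.96 and 0.53.

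TIP1-2, the other γ-type member, was present at a far lower level. It had 26.3 FPKM in cold and 40.3 FPKM in control, a log2 fold change of −0.60. Relative to TIP1-1 it stood at 0.0405 in cold and 0.0624 in control. The difference was an ordinary one for its level: of 5545 other loci with a mean within 2-fold of that of TIP1-2, 29.1% were at least as low in cold relative to control.

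TIP2-2 belongs to the δ-type group, whose Arabidopsis members are known to pass ammonia as well as water. It was listed at 399 FPKM in cold and 605 FPKM in control, a difference of −205.9 FPKM, the largest negative one among the 5 loci. Its log2 fold change of −0.60 matched that of TIP1-2. TIP2-2 was nearly level with TIP1-1 in control and well below it in cold, since TIP1-1 exceeded it 1.63-fold in cold and 1.07-fold in control. Of 197 other loci with a mean within 2-fold of that of TIP2-2, 36.5% were at least as low in cold relative to control, and the value lay inside their quartiles of −0.95 and 0.89.

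TIP2-1, the other δ-type member, is known in rice as a TIP mainly of roots. In these leaves it was listed at 0.139 FPKM in cold and 0.530 FPKM in control, below the floor of a mean of 1 FPKM, so it was the 1 member left out of the counts of loci past 2-fold. By the ratio of FPKM it was 3.83-fold lower in cold, yet the log2 fold change with a pseudocount of 1 was only −0.43, as the pseudocount exceeds both values. On the deposited scale, among 3699 other loci above 0 in both treatments with a mean within 2-fold of that of TIP2-1, the median ratio was 0.685, and 19.1% had a ratio at least as low. Without a depth, the counting error at this level is unknown.

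TIP4-1, the rice counterpart of the ε-type group, was listed at 291.6 FPKM in cold and 72.8 FPKM in control. The log2 fold change was 1.99, which 813 of the 20876 loci (3.89%) reached or passed. Its rank among all loci was 217 in cold and 1263 in control. Of 808 other loci with a mean within 2-fold of that of TIP4-1, 95 (11.8%) were at least as much higher in cold, and their median log2 fold change was −0.15 with an upper quartile of 0.88.

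**Figure D2:**
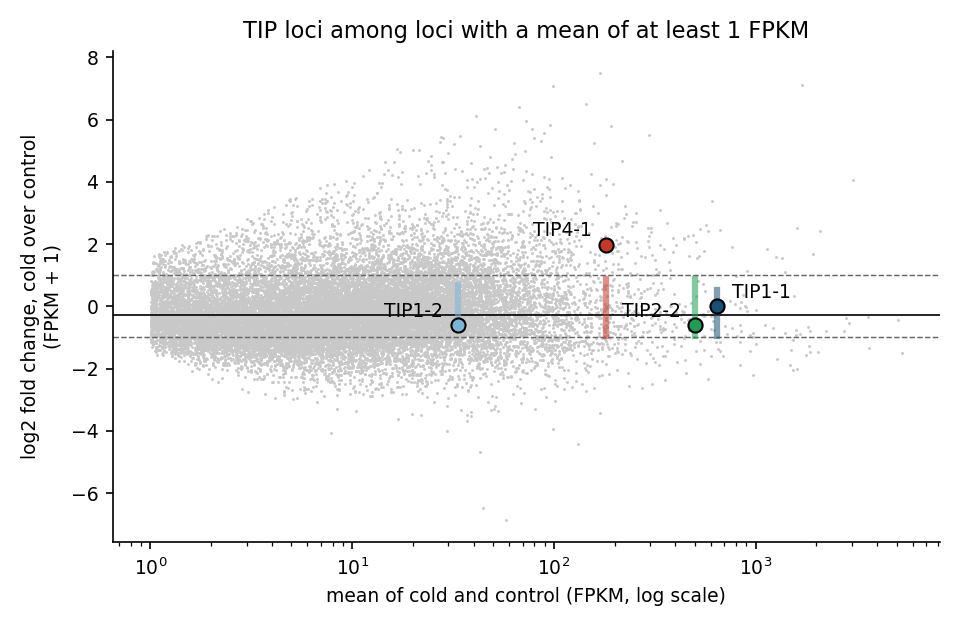
Log2 fold change of cold over control on log2(FPKM + 1) against the mean of the treatments (FPKM, log scale) for the 20876 loci whose mean reached 1 FPKM (grey) and 4 TIP loci (coloured points). Vertical bars span the quartiles of other loci within 2-fold of each TIP's mean, the solid line is the median of −0.27 and dashed lines mark 2-fold. TIP4-1 lies above the bar of its level, and the other 3 lie within theirs.

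Past a 2-fold limit, 1 of the 4 TIP loci over the floor was higher in cold and 0 were lower. Over all loci past the floor, 12.5% were higher by this limit and 19.2% were lower on the deposited scale. That balance depends on the scale, with 18.1% higher and 11.0% lower after median-of-ratios scaling, and 14.8% higher and 14.2% lower after quantile normalization. At the level of TIP4-1 on the deposited scale 23.3% were higher and 24.1% lower. Such shares were not computed at the levels of the other TIP loci. A count of 1 among 4 loci says nothing particular of TIPs as a group. The median log2 fold change of the 4 TIP loci was −0.29, against −0.27 over all loci.

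The make-up of the summed TIP level depends on neither the sum nor a common scale between the columns. TIP1-1 held 47.5% of it in cold and 47.3% in control. TIP4-1 held 21.3% in cold and 5.34% in control, and TIP2-2 held 29.2% in cold and 44.4% in control. In FPKM as deposited, the differences of these 2 loci nearly cancelled, at 218.8 for TIP4-1 and −205.9 for TIP2-2. The smaller members contributed little, with TIP1-2 at 1.93% in cold and 2.95% in control, and TIP2-1 at 0.0101% in cold and 0.0389% in control.

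**Figure D3:**
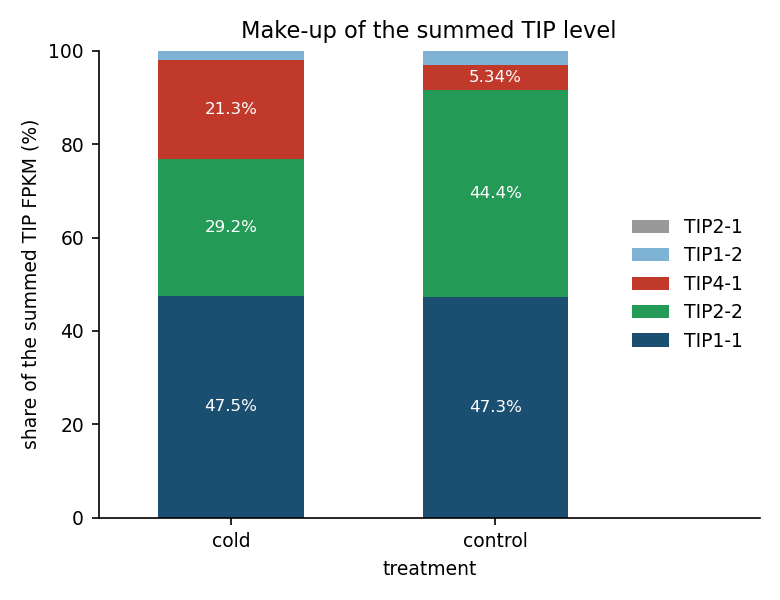
Share (%) of the summed FPKM of the 5 TIP loci held by each locus in cold (left bar) and control (right bar). The TIP4-1 segment is 21.3% in cold and 5.34% in control, the TIP2-2 segment 29.2% in cold and 44.4% in control, and the TIP1-1 segment is nearly the same in both.

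The order of the members by FPKM, which is a level per length, was the same in both treatments: TIP1-1, TIP2-2, TIP4-1, TIP1-2 and TIP2-1 from high to low. The gaps differed. TIP2-2 exceeded TIP4-1 by 1.37-fold in cold and 8.31-fold in control, and TIP4-1 exceeded TIP1-2 by 11.1-fold in cold and 1.81-fold in control. Which neighbours in this order differ beyond replicate error cannot be said from 1 value each.

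Scaling the columns differently moved the log2 fold changes of the 5 TIP loci and turned the sign of none of them, while the median of all loci did turn. Median-of-ratios scaling raised that median by 0.30, to 0.029, and quantile normalization raised it by 0.17, to −0.10. With these, with columns of equal sum and with the 3 other pseudocounts, TIP4-1 stayed between 1.91 and 2.33 on the log2 scale. TIP1-1 lay between 0.01 and 0.36, TIP2-2 between −0.60 and −0.25 and TIP1-2 between −0.64 and −0.26. TIP2-1, the weak locus, spread from −1.94 to −0.11. The kept sign of TIP1-1 says little, since each scaling raised a value that was already just above 0. It was 0.09 with columns of equal sum, 0.14 after quantile normalization and 0.36 after median-of-ratios scaling. A pseudocount by itself cannot turn the sign of a fold change. After subtracting the median of all loci under the same setting, TIP1-1 lay between 0.18 and 0.33, TIP2-2 between −0.43 and −0.28 and TIP1-2 between −0.54 and −0.29. TIP2-1 lay between −1.61 and 0.059, changing sign with a pseudocount of 5.

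**Figure D4:**
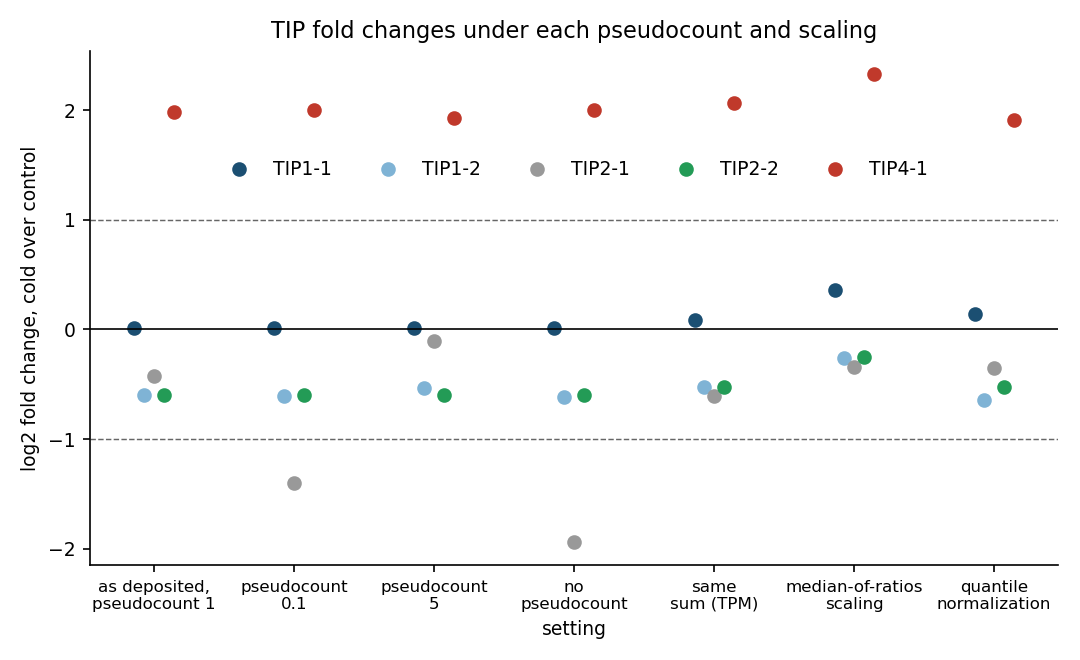
Log2 fold change of cold over control for the 5 TIP loci under the deposited scale with a pseudocount of 1 and 6 alternatives, with dashed lines at 2-fold. TIP4-1 stays above the upper line in each, between 1.91 and 2.33, and TIP2-1 passes the lower line with a pseudocount of 0.1 or none.

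The loci listed just before and after TIP4-1 were at or near 0 FPKM, so a shared difference could not be seen there. The locus before it was listed at 0 FPKM in both treatments, and the locus after it at 0.0741 FPKM in cold and 0 FPKM in control. The loci beside TIP2-2 were likewise at 0 before and at 0.124 FPKM in cold and 0.176 FPKM in control after. Those beside TIP1-1 were expressed, at 23.6 FPKM in cold and 17.6 FPKM in control before it and at 17.1 FPKM in cold and 18.8 FPKM in control after it. After TIP1-2 the next locus had 8.03 FPKM in cold and 12.3 FPKM in control. Its log2 fold change of −0.56 was close to that of TIP1-2 itself, and whether these 2 share reads was not tested. Both values lay inside the quartiles of all loci past the floor, −0.84 and 0.41, so the closeness is ordinary. The locus after TIP2-1 had 1.92 FPKM in cold and 3.62 FPKM in control, a log2 fold change of −0.66. Those before TIP1-2 and TIP2-1 were at 0 FPKM in both treatments. Of the 10 neighbours 4 were past the floor, and 0 of those differed by 2-fold. Over all loci past the floor 12.5% were higher and 19.2% lower, so a count of 0 among 4 is not informative.

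The pattern most like that of TIP1-1, the most abundant TIP, was measured as the distance between log2(FPKM + 1) values over the 2 treatments. LOC_Os01g51410 on chromosome 1 came closest, at 648.7 FPKM in cold and 642.8 FPKM in control, a distance of 0.0054. LOC_Os05g13940 on chromosome 5 followed at a distance of 0.089, with 687.6 FPKM in cold and 661.1 FPKM in control. With only 2 values per locus, likeness here means a similar level in both treatments.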

How the data were processed

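RNA-seq values were used as deposited by the authors, as FPKM per locus in 1 column for cold and 1 for control. How the 2 libraries of a treatment were combined, the genome build, the annotation and the treatment of strand and of multiply mapped reads are not stated in the labels or the table, so reads shared between similar TIP genes cannot be traced. Per the submitters' processing notes, the tools across all assays were HISAT2 2.1.0 and Bowtie, featureCounts 1.6.4, Trimmomatic 0.39 and Trim Galore 0.4.3, SAMtools and FastQC, with no step assigned to any of them. FPKM divides by locus length and by the fragment total, so abundant transcripts of a column shift its other values.

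From these values the log2 fold change of cold over control was computed as the difference of log2(FPKM + 1), with a 2-fold limit and a floor of a mean of 1 FPKM over the columns. Each member was also set beside loci with a mean within 2-fold of its own. With 1 value per treatment no test was run. The members, lists and limits were chosen with earlier results of these data known. The named loci were the 5 members and the 2 loci nearest to the most abundant member. Names were checked by TIP name and chromosome against the 39387 genes of a RefSeq table (assembly ASM3414082v1), which carries 0 of the members' identifiers, so no list of other aquaporin or tonoplast genes was used. Promoter and protein sequences were not analysed here. Alternatives were pseudocounts of 0.1, 5 and none, columns of equal sum (TPM), median-of-ratios scaling, quantile normalization, no filter and a mean of at least 5 FPKM. The functions were tested on simulated data. Python 3.11.15, numpy 2.4.6, pandas 2.3.3 and matplotlib 3.10.9 were used.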

Additional observations from a re-analysis of the deposited data

How the results depend on the processing

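Of 49 recomputed values, 43 stayed within the limits set (0.5 on the log2 scale and the same side of 2-fold, or 1.5-fold for counts), 6 moved and 0 reversed. Only a value past 2-fold as deposited could be called reversed, and among the folds and the sum that was TIP4-1 alone. Counts could only stay or move, so the 0 says nothing of the other TIP loci, the sum or the counts. The log2 fold change of TIP2-1 was −1.40 with a pseudocount of 0.1 and −1.94 with none, against −0.43 with 1, since a smaller pseudocount shrinks a weak locus less. Over all loci, a pseudocount of 5 left 1663 at least 2-fold higher and 1618 lower in cold (50.7% of these higher), against 2617 and 4003 (39.5% higher). Median-of-ratios scaling gave 3766 higher and 2285 lower (62.2% higher), and quantile normalization 3097 and 2958 (51.1% higher). A mean of at least 5 FPKM left 2605 lower among 14021 loci (18.6%), against 4003 among 20876 (19.2%), so the share hardly changed. The summed TIP level had a log2 ratio of 0.0039 as deposited and of 0.35 after median-of-ratios scaling, so its near equality depends on the scale between the columns. A filter cannot alter the fold of a member. No paired analysis was possible because the cold and control columns carry no replicate numbers. Fits without each replicate were not run for the same reason. The unknown depth leaves counting error unknown.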
